A study of Rattus norvegicus with 6 samples.

Results

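The 40 genes described here drive the cell cycle and DNA replication, and were listed by name in 4 groups: 10 G1 genes, 9 S genes, 18 G2/M genes and 3 inhibitors of cyclin-dependent kinases (CDKs). Of the 40, 38 were measured on the array, among 14217 genes in all. Rrm2 and Tpx2 had no probe set that names 1 gene only. Of the 38, 4 G2/M genes (Cdc25b, Bub1, Bub1b and Kif11) were too dim to be tested, which left 34 tested genes.

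The cells were CD11b+CD163+ macrophages sorted from the right brain hemisphere of adult male Sprague-Dawley rats. CD163 marks the macrophages that sit around brain vessels and in the meninges, known as border-associated macrophages (BAMs). The 3 control rats (63, 68 and 69), described as non-ischemic, were compared with 3 rats (64, 65 and 66) that had 1 h of occlusion of the right middle cerebral artery through an intraluminal filament, followed by reperfusion for 16 h. RNA of each rat went on its own Affymetrix array. Whether the controls had sham surgery is not given in the sources used here.

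A cell enters the cycle when D-type cyclins switch on CDK4 and CDK6, and cyclin E then switches on CDK2. These kinases phosphorylate the retinoblastoma protein, which releases E2F transcription factors that drive the genes of DNA replication, and the genes of mitosis come later. CDK inhibitors hold the kinases back, and most tissue macrophages rest outside the cycle, although resident macrophages can renew themselves by dividing. The comparison asks in which of these phases transcripts differed in BAMs after ischemia.

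All values are log2 values after robust multi-array averaging (RMA), so a difference of 1 is a doubling, and levels are compared only within a gene. The words rose and fell are used where the adjusted p of limma, over the 9928 genes tested, was under 0.01. Of all genes tested, 1664 rose (16.8%) and 595 fell (5.99%), so that 73.7% of the calls were rises. The 3 ischemic values all lay above the 3 controls in 35.7% of the genes tested and all below them in 19.9%. A probe set was taken as near background up to 7.40, the 90th percentile of 38 genes of other tissues.

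The sorting markers and other cell types were checked first. Cd163, Mrc1 and Lyve1, which mark BAMs, had values from 12.63 to 14.66 in the 6 rats. Of the 10 measured BAM markers, 2 rose: Itgam, which encodes the sorting marker CD11b, by 2.24 (8.74, 9.06 and 8.97 in controls against 10.99, 11.27 and 11.21, limma adjusted p = 0.000104) and Mertk, a receptor for dying cells, by 0.86 (limma adjusted p = 0.0023). Of the 7 measured monocyte markers 5 rose, and the mean level of the 7 per rat was 9.37 to 10.07 in controls and 12.11 to 12.999 in ischemic rats. The other 2 did not pass the test: Ccr2 differed by 0.43 and F13a1 by -0.77. The authors list Vcan and Fn1, 2 of these markers, among the genes most raised after ischemia in the CD163+ cells. Of 9 measured granulocyte markers, 6 were tested and 2 rose, with a mean level of 6.59 to 6.82 against 7.35 to 8.07, while Camp, Mmp8 and Np4 had means under 7.40 in both groups. The 2 rises, S100a8 and Mmp9, and the rise of the monocyte marker Vcan have every control under the level of 7.16 required for testing, so these genes were tested only through the ischemic rats, in which they are high. All 9 measured oligodendrocyte markers were lower after ischemia. Of the 7 tested, 2 fell, and in 6 all 3 ischemic values lay below the controls. Of 6 tested microglia markers 1 fell, P2ry12 by 1.78, and of 4 tested astrocyte markers 1 rose, Gfap by 2.07 (limma adjusted p = 0.00109 and 0.00563). The other tested microglia and astrocyte markers did not pass the test. Of the 6 microglia markers, 2 had all ischemic values above the controls, Cx3cr1 (0.68) and Tmem119 (0.61). In 2 they lay below the controls, P2ry12 and Gpr34 (-1.71). Of 5 measured astrocyte markers, 2 were higher and 3 lower after ischemia. Of 10 measured lymphocyte markers, 5 were tested, 1 rose and 2 fell. Cd2 rose by 1.58, Cd7 fell by 3.12 and Cd5 fell by 1.05 (limma adjusted p = 0.00387, 0.000562 and 0.0052), while the T and B cell genes Cd3e, Cd3g and Ms4a1 had means from 4.47 to 5.29 in the 2 groups, under the background level. Control 63 carried more endothelial signal than the other controls, with Cldn5 at 10.52 against 6.09 and 7.03. By median deviation from the control means, it was the highest control in astrocyte, oligodendrocyte, mural and fibroblast markers and the lowest in BAM markers. That median in controls 63, 68 and 69 was 0.92, -0.35 and -0.81 for astrocyte and 0.40, 0.0035 and -0.50 for oligodendrocyte markers. For mural and fibroblast markers it was 0.19, -0.091 and -0.69, and for BAM markers -0.44, 0.27 and 0.13. The array's actin probe sets differed more between the 3′ and 5′ end in ischemic rats (0.17 to 0.24) than in controls (0.058 to 0.073). The part of these differences in the results below was not tested, and in sorted cells measured in bulk, fewer cells of a type and less RNA per cell cannot be told apart.

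Of the 34 tested cell cycle genes, 4 rose, 3 fell and 27 did not pass the test. Over all genes tested 16.8% rose and 5.99% fell, and the counts of calls by group below are read beside these shares. The rises were Cdk4 and Ccne1 in G1 and Mcm2 and Mcm6 in S, and the falls were Ttk in G2/M and the CDK inhibitors Cdkn1b and Cdkn2c. With 1 rat left out, the rises among the 34 numbered 1 without control 63 or 68, 2 without ischemic rat 64 and 0 without control 69 or ischemic rat 65 or 66, and the falls numbered 2 or 3. Without control 63, the rise was Mcm6 and the falls were Ttk and Cdkn2c. None changed by more than 2 log2 units, beyond which 2.22% of all genes tested were called. All 3 ischemic values were above the controls in 12 of the 34 genes and below them in 6, which is close to the shares over all genes given above. By group, the ischemic values were above in 7 of 8 S genes, in 3 of 10 G1 genes and in 1 of 13 tested G2/M genes. The median log2 fold change was 0.49 over the S genes, 0.17 over the G1 genes, -0.00089 over the measured G2/M genes and -0.72 over the inhibitors, against 0.10 over all genes tested. With 3 rats in each group an exact permutation test of a single gene cannot go below 0.1, so all p-values come from the fit across genes.

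**Figure D1:**
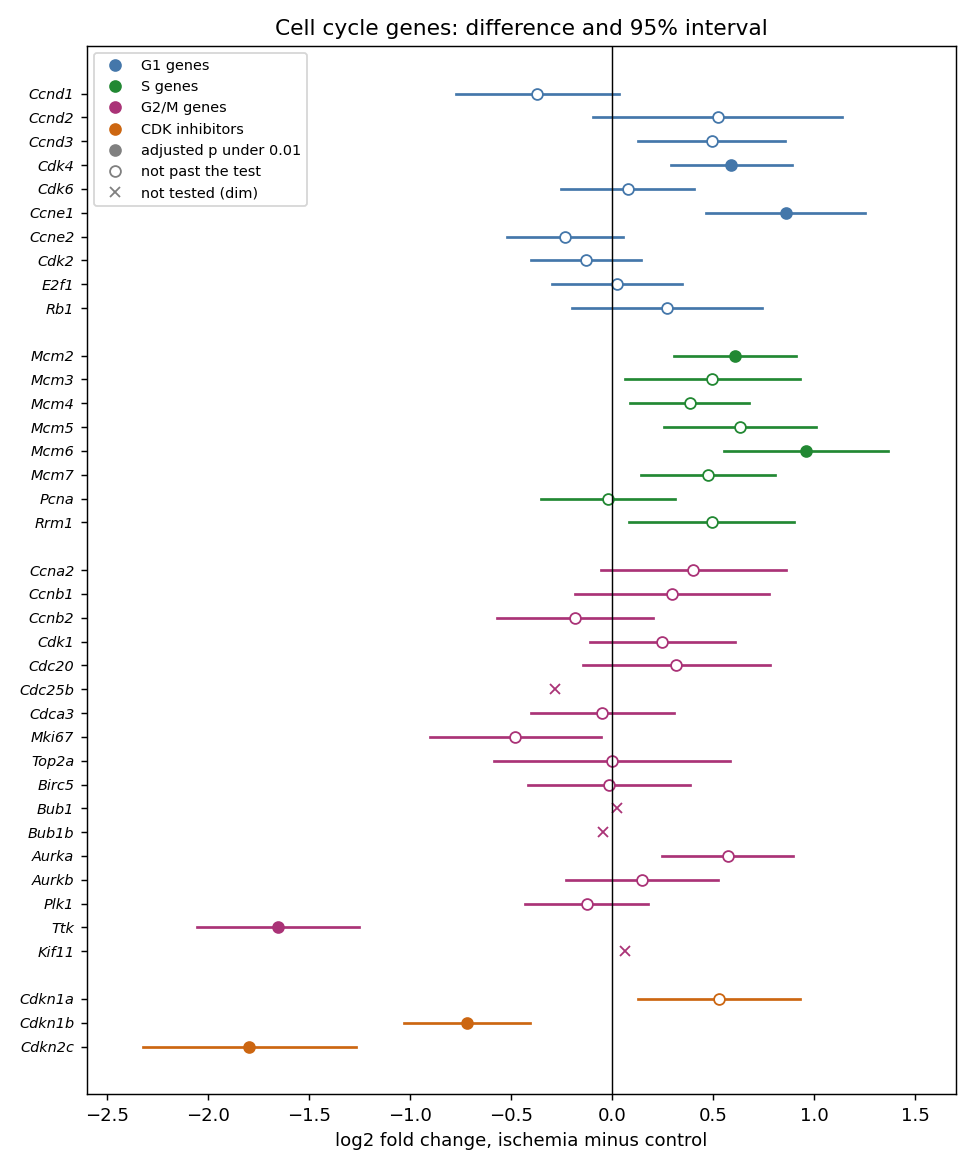
Log2 fold change (ischemia minus control, x axis) of the 38 measured cell cycle genes, with the 95% interval of the fit for the 34 tested genes. Filled circles mark the 7 genes with an adjusted p under 0.01, open circles the 27 tested genes not past it and crosses the 4 dim genes. The S genes lie to the right of 0 except Pcna, the G2/M genes lie on both sides, and Ttk and Cdkn2c stand far to the left.

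Of the 10 G1 genes, 2 rose. Cdk4, the kinase partner of the D-type cyclins, had values of 11.73, 11.98 and 11.76 in controls 63, 68 and 69 and of 12.33, 12.49 and 12.43 in ischemic rats 64, 65 and 66. The groups did not overlap, and Cdk4 was higher by 0.59 (SE 0.13, n = 3 rats per group, limma adjusted p = 0.00888). Ccne1, which encodes cyclin E1, the activator of CDK2 at the entry to S phase, stood at 7.61, 7.54 and 7.32 in controls and at 8.18, 8.19 and 8.67 after ischemia. It rose by 0.86 (SE 0.17, n = 3, limma adjusted p = 0.00586), with rat 66 the highest of the ischemic rats. Its control mean, 7.49, lay just above the background level of 7.40, and control 69 lay under that level. With the 60th percentile filter, Ccne1 was too dim to be tested. Neither call was stable with 1 rat left out. Cdk4 lost its call whichever of the 6 rats was left out (limma adjusted p up to 0.0468). Ccne1 kept its call only without ischemic rat 64, its limma adjusted p otherwise reaching 0.0225. The differences stayed between 0.54 and 0.67 for Cdk4 and between 0.70 and 0.94 for Ccne1.

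The 3 D-type cyclins, which link growth signals to CDK4 and CDK6, did not move in 1 direction, and none passed the test. Ccnd1 had values of 11.59, 11.90 and 11.40 in controls and of 11.44, 11.32 and 11.02 after ischemia, a difference of -0.37 (95% interval -0.78 to 0.033, limma adjusted p = 0.125). The groups overlapped, and its other 2 probe sets differed by -0.49 and -0.58. Ccnd2 spread widely among controls, at 10.94, 12.02 and 11.43, and stood at 12.16, 12.10 and 11.69 after ischemia (difference 0.52, limma adjusted p = 0.152). For Ccnd3 all ischemic values, 8.59, 8.77 and 8.82, lay above the controls at 8.32, 8.42 and 7.95 (difference 0.49, limma adjusted p = 0.0385).

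The remaining G1 genes differed little. Cyclin E2, encoded by Ccne2, ran against Ccne1: its values were 10.14, 10.01 and 10.11 in controls and 9.83, 9.98 and 9.75 after ischemia, all 3 below the controls, without passing the test (difference -0.23, limma adjusted p = 0.169). Cdk2, the partner of the E-type cyclins, differed by -0.13 and its ischemic values were also below the controls, by as little as 0.0025 between the nearest rats. Cdk6 differed by 0.077, E2f1, an activating E2F factor, by 0.024, and Rb1, the retinoblastoma gene, by 0.27. The 95% intervals were -0.25 to 0.41 for Cdk6, -0.30 to 0.35 for E2f1 and -0.20 to 0.74 for Rb1, so a change of the size seen in Cdk4 lay outside the first 2 and inside the last.

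In the S genes, 2 of 8 rose and 7 of 8 had every ischemic rat above every control. Of them, 6 encode the MCM2 to MCM7 subunits of the ring-shaped helicase that is loaded on replication origins in G1 and unwinds DNA in S phase. Promoters of replication genes are textbook targets of E2F factors, and 3 of these promoters are shown to place the known motif beside the values. E2F sites were searched as TTTCCCGC, TTTGGCGC and TTTCGCGC on both strands, from 250 bases before to 50 after the start of the gene in RefSeq's GRCr8 build, and 30 of the 40 genes had such a window (Ccnd1, Ccnd2, Cdk6, Ccne2, E2f1, Mcm4, Rrm2, Ccna2, Aurkb and Tpx2 had none). At least 1 match was found in 5 of 7 S genes (Mcm2, Mcm3, Mcm5, Mcm6 and Mcm7), 1 of 5 G1 genes (Rb1), 1 of 15 G2/M genes (Cdk1) and 0 of 3 inhibitors, against 1.72% of all 33469 windows and 3.63% of the 8354 windows of genes tested. A match is a description of letters, and binding of E2F was not measured. The 150 bases before the start are printed 5′ to 3′ in the direction of the gene, with E2F matches in capitals, for Mcm2 at chr4:122918095-122918244 (minus strand), Mcm5 at chr19:13488663-13488812 (plus strand) and Mcm6 at chr13:42404353-42404502 (minus strand). In Mcm2 and Mcm6 2 matches on opposite strands share letters and appear as 1 run.
Mcm2: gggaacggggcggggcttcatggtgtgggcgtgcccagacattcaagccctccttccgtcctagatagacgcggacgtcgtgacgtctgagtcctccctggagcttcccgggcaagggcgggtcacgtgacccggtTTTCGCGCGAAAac
Mcm5: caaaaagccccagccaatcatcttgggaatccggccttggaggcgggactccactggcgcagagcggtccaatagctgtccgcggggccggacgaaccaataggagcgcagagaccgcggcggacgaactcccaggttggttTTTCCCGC
Mcm6: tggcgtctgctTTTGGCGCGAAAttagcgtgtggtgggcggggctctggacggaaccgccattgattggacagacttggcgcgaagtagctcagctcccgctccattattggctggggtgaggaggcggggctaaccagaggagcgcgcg

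Mcm6 had the largest rise of the 34 genes. Its values were 8.49, 9.14 and 8.82 in controls and 9.80, 9.70 and 9.84 after ischemia, so that every ischemic rat was above every control and the ischemic rats lay closer together. The difference was 0.96 (SE 0.18, n = 3, limma adjusted p = 0.00411). Mcm2, with the E2F letters next to its start, had values of 8.79, 8.99 and 9.07 in controls and of 9.62, 9.58 and 9.47 in ischemic rats. It rose by 0.61 (SE 0.13, n = 3, limma adjusted p = 0.00799). The Mcm2 call was lost without any 1 rat (adjusted p up to 0.0390), and that of Mcm6 was lost without control 69 or ischemic rats 65 or 66 (up to 0.0164), while their differences stayed between 0.53 and 0.67 and between 0.80 and 1.12.

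The other 4 helicase subunits had non-overlapping values in the same direction and did not pass the test at 0.01. Mcm5 stood at 9.71, 9.92 and 9.43 in controls and at 10.29, 10.18 and 10.48 after ischemia (difference 0.63, limma adjusted p = 0.0163). Mcm7 stood at 8.99, 9.33 and 9.11 against 9.74, 9.47 and 9.64 (difference 0.47, limma adjusted p = 0.0310). Mcm4, at 10.17, 10.01 and 10.19 against 10.55, 10.59 and 10.38, differed by 0.38 (limma adjusted p = 0.0428). Mcm3 differed by 0.50, with controls at 9.18, 9.50 and 8.79 and ischemic rats at 9.63, 9.56 and 9.77 (limma adjusted p = 0.0655). All 6 subunits thus differed by between 0.38 and 0.96 on the log2 scale, and in each the lowest ischemic rat was above the highest control.

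The nucleotide supply gene Rrm1 and the sliding clamp gene Pcna differed in pattern. Rrm1 encodes the large subunit of ribonucleotide reductase, which makes the building blocks of DNA. It had values of 9.50, 9.93 and 9.35 in controls and of 10.09, 9.93 and 10.23 after ischemia, where rat 65 lay just above control 68 (difference 0.49, limma adjusted p = 0.0561). Pcna, the clamp that holds DNA polymerase on its template, stood at 13.07, 13.27 and 13.50 in controls and at 13.32, 13.21 and 13.25 after ischemia. Its groups overlapped, and the difference was -0.021 (95% interval -0.35 to 0.31, limma adjusted p = 0.917), an interval that leaves out the differences of Mcm2 to Mcm7 estimated here. Per rat, the median deviation of the 8 S genes from their control means was -0.12, 0.21 and -0.016 in controls 63, 68 and 69 and 0.55, 0.44 and 0.57 in ischemic rats 64, 65 and 66. The mean level of the monocyte markers was higher in the same 3 rats, as given above, and the part of these markers in the S gene values was not tested.

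**Figure D2:**
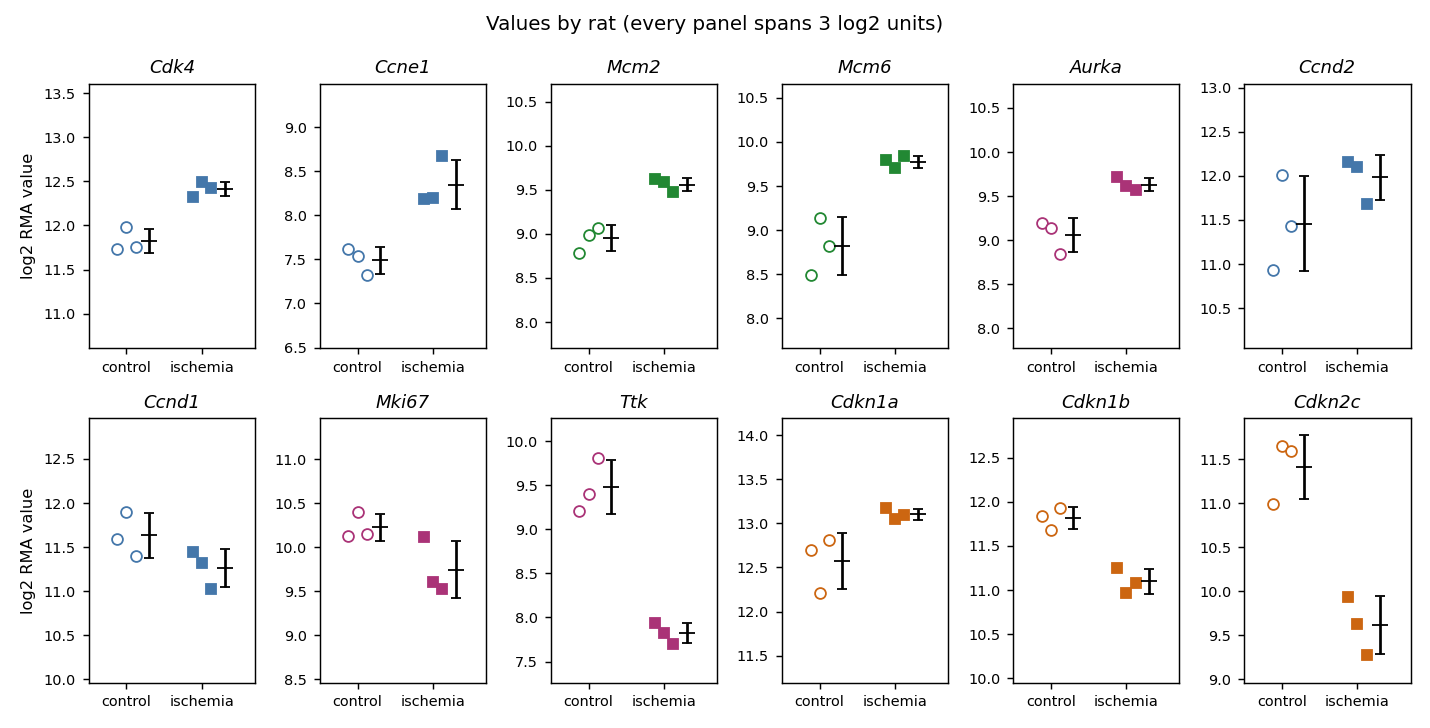
Log2 RMA values (y axis, each panel 3 log2 units high with its own origin) of 12 cell cycle genes in the 3 control rats (open circles, from left 63, 68 and 69) and the 3 ischemic rats (filled squares, from left 64, 65 and 66), with the group mean and SD as a bar at the side. The groups are apart in Cdk4, Ccne1, Mcm2, Mcm6, Aurka, Ttk, Mki67 and the 3 inhibitors, and overlap in Ccnd1 and Ccnd2; only Ttk and Cdkn2c differ by more than 1 unit.

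The mitotic genes showed no common shift. Of 17 measured G2/M genes, 13 were tested, 0 rose and 1, Ttk, fell; 5 of the 17 had a control mean at or under the background level. Their promoters carry another known element, the cell cycle genes homology region (CHR), read here as TTTGAA on either strand, through which these genes are shut off in resting cells. The letters were found in 9 of 15 G2/M windows, against 1 of 7 S windows, 0 of 5 G1 windows and 0 of 3 inhibitor windows, and in 18.3% of all windows and 11% of those of genes tested. The CCAAT box that often stands beside it was in 12 of 15 G2/M and 6 of 7 S windows, against 38.2% of the windows of genes tested. The 150 bases before the start of the mitotic kinase gene Cdk1 at chr20:19265143-19265292 (plus strand), of Ccnb2 at chr8:79981659-79981808 (minus strand) and of Mki67 at chr1:199952594-199952743 (minus strand) are printed as above with TTTGAA and its reverse complement in capitals. These 3 are G2/M genes that did not pass the test, and the E2F match of Cdk1 is left in lower case.
Cdk1: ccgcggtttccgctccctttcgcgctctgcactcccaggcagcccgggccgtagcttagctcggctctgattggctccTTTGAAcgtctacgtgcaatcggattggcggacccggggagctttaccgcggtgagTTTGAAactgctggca
Ccnb2: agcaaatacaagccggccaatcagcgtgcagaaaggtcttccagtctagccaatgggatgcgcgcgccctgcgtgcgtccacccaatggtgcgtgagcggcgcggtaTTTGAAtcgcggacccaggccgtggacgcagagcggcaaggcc
Mki67: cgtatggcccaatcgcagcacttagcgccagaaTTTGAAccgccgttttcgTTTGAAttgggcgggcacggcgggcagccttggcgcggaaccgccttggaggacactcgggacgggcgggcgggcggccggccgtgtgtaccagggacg

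Mki67, whose protein Ki-67 is the common stain for dividing cells, had values of 10.12, 10.40 and 10.15 in controls and of 10.11, 9.60 and 9.52 after ischemia. All ischemic values were below the controls, rat 64 by 0.0097 only, and the difference of -0.48 did not pass the test (95% interval -0.90 to -0.058, limma adjusted p = 0.0675). The interval lies below 0, while those of all 6 helicase subunits lie above it. These intervals are not adjusted for the number of genes tested. Of the 9928 genes tested, 5014 had an unadjusted p under 0.05 in the limma fit, so intervals that leave out 0 were common. Top2a, the topoisomerase that untangles chromosomes, was level between the groups, with 7.94, 8.48 and 7.44 in controls and 8.20, 7.82 and 7.84 after ischemia. Its difference was -0.00089 with an interval from -0.59 to 0.59, wide enough to hold a change of the size seen in Mcm7 in either direction. Birc5, or survivin, differed by -0.017 (interval -0.42 to 0.38).

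The kinase Cdk1 and the cyclins that switch it on did not pass the test. Cdk1 had values of 7.70, 8.004 and 7.65 in controls and of 8.21, 8.03 and 7.85 after ischemia (difference 0.25, limma adjusted p = 0.233). Ccnb2, which encodes cyclin B2, stood at 8.39, 8.68 and 8.74 against 8.71, 8.31 and 8.26 (difference -0.18, limma adjusted p = 0.408). Cyclin B1, from Ccnb1, differed by 0.30 and cyclin A2, from Ccna2, by 0.40 (95% intervals -0.18 to 0.78 and -0.054 to 0.86, limma adjusted p = 0.282 and 0.138), and the control mean of Ccna2, 7.24, lay under the background level. In all 4 of these genes the groups overlapped.

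Among mitotic regulators, Aurka and Ttk went opposite ways. Aurka, the kinase of the spindle poles, had values of 9.19, 9.14 and 8.84 in controls and of 9.71, 9.61 and 9.57 after ischemia, the only tested G2/M gene with all ischemic values above the controls (difference 0.57, SE 0.14, limma adjusted p = 0.0134). Ttk, the kinase that starts the spindle checkpoint, stood at 9.21, 9.40 and 9.81 in controls and at 7.94, 7.82 and 7.70 in ischemic rats. It fell by 1.65 (SE 0.17, n = 3, limma adjusted p = 0.000571), and the call held without any 1 rat. Its second probe set, which had a mean of 5.78 in controls and was too dim to test, differed by -0.35, and with both probe sets averaged the difference was -1.003. Aurkb, the kinase of the centromere, differed by 0.15, Plk1, a kinase of mitotic entry, by -0.13 and Cdca3 by -0.048 (limma adjusted p = 0.469 to 0.823). Cdc20, which activates the ligase that ends mitosis, differed by 0.32 (limma adjusted p = 0.237), while its other 4 probe sets, all dimmer, differed by -0.24 to -0.40.

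The 4 untested G2/M genes stayed dim in both groups. Group means were 6.95 and 6.67 for the phosphatase gene Cdc25b, 7.11 and 7.13 for Bub1, 6.09 and 6.05 for Bub1b and 6.63 and 6.69 for the spindle motor Kif11, control before ischemia. Within the groups, the mitotic genes were often highest in the same rats: control 68 was the highest control in 11 of 17 G2/M genes and ischemic rat 64 the highest ischemic rat in 14 of 17. Over all genes tested these shares were 50.3% and 40.6%. The median deviation of the 17 genes from their control means was -0.058, 0.12 and -0.16 in the controls and 0.25, -0.081 and -0.060 in rats 64, 65 and 66, so rat 64 lay above all controls and the other 2 among them.

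**Figure D3:**
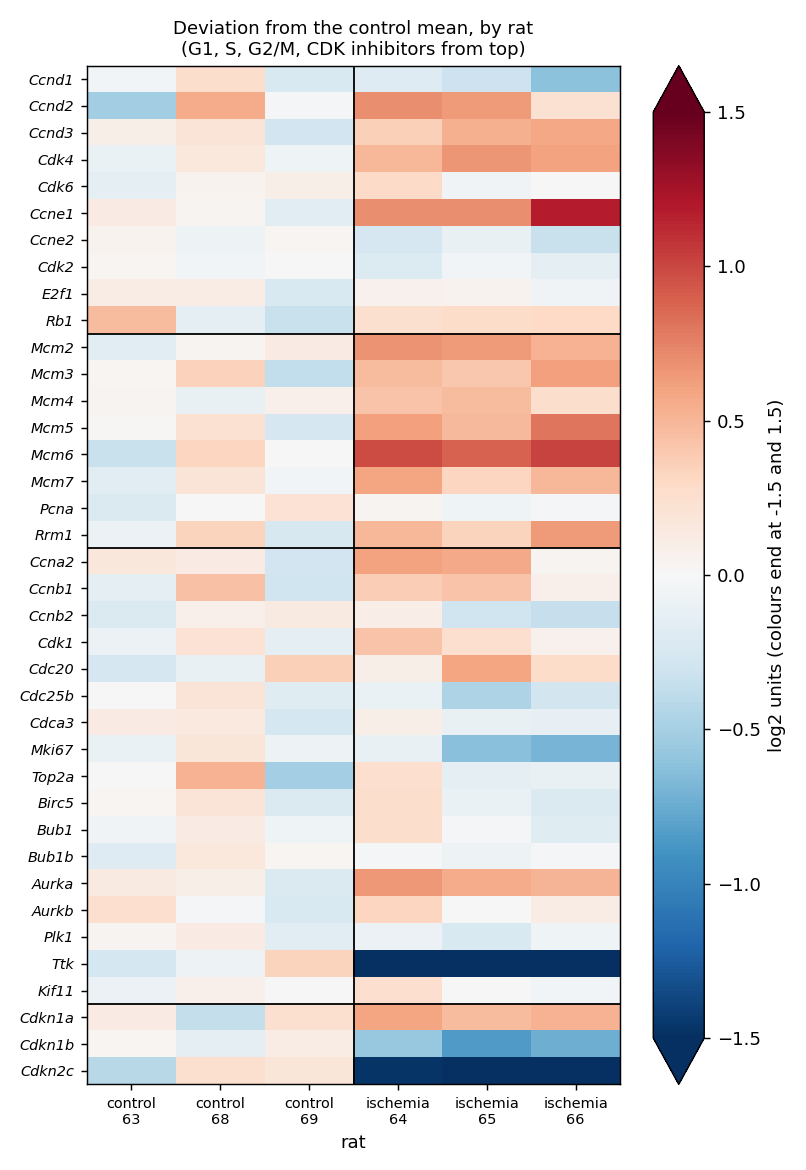
Deviation of each of the 38 measured cell cycle genes (rows) from its own control mean in each of the 6 rats (columns), in log2 units, red above and blue below, with lines between the G1, S, G2/M and inhibitor groups. The S genes other than Pcna are red in all 3 ischemic rats, the G2/M genes are mixed and redder in ischemic rat 64, and Ttk and Cdkn2c are deep blue, at or beyond the end of the scale in most ischemic rats.

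Of the 3 CDK inhibitors, 2 fell and Cdkn1a, which did not pass the test, was higher. Cdkn1b encodes p27, which holds cyclin E and CDK2 inactive in resting cells. Its values were 11.84, 11.69 and 11.93 in controls and 11.25, 10.97 and 11.08 after ischemia, a fall of 0.72 with no overlap between the groups (log2 difference -0.72, SE 0.14, n = 3, limma adjusted p = 0.00464). The second probe set of Cdkn1b differed by -0.74. The call was lost without control 63 or 69 or ischemic rats 65 or 66 (adjusted p up to 0.0274), with differences from -0.79 to -0.65 over all 6 rats left out.

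Cdkn2c encodes p18, an inhibitor of CDK4 and CDK6. It stood at 10.995, 11.65 and 11.59 in controls and at 9.94, 9.63 and 9.27 in ischemic rats, and differed by -1.80 (SE 0.23, n = 3, limma adjusted p = 0.00107), the largest change among the 34 genes. The call held without any 1 rat, but its second probe set disagreed. That probe set had values of 8.53, 8.62 and 8.83 in controls and of 8.35, 8.58 and 8.58 after ischemia, a difference of -0.16 that did not pass a fit over probe sets (limma adjusted p = 0.414). Averaged over both probe sets, Cdkn2c differed by -0.98 and kept its call. Why the probe sets differ was not tested.

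Cdkn1a encodes p21, the inhibitor induced by p53 and by stress signals. It had values of 12.70, 12.21 and 12.81 in controls and of 13.17, 13.05 and 13.09 after ischemia, all above the controls, with a difference of 0.53 that did not pass the test (limma adjusted p = 0.0408). A second, dimmer probe set stood at 9.73, 9.42 and 10.20 against 10.68, 10.79 and 11.005. It differed by 1.04 and passed a fit over all probe sets (limma adjusted p = 0.00662), so the call on Cdkn1a depended on the probe set. The median deviation of the 3 inhibitors was 0.025, -0.13 and 0.18 in controls and -0.57, -0.85 and -0.74 in ischemic rats.

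The calls on the rising genes depended on how the arrays were scaled. When arrays were centred on 46 ribosomal protein genes, the median over all genes tested moved from 0.10 to -0.094, and the share of rises among the calls from 73.7% to 49.0%. Mcm6 was then the only cell cycle gene of the 34 that rose (log2 difference 0.76), Cdk4, Ccne1 and Mcm2 were lost at 0.39, 0.66 and 0.41, and the 3 falls remained. The median over the S genes became 0.29 and that over the G1 genes -0.027. Quantile normalization, when repeated, lost Cdk4 (limma adjusted p = 0.0219) and gave 60.1% rises.

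Wider lists of 190 further cell cycle genes were read the same way, of which 166 were measured and 137 tested. Of the 137, 15 rose and 12 fell. This count and those of the single lists are read beside the 16.8% of all genes tested that rose and the 5.99% that fell. In the list of G1/S regulators 6 of 17 tested genes rose and 2 fell. Myc, a driver of growth and of cycle entry, stood at 8.34, 8.78 and 9.23 in controls and at 10.60, 10.20 and 9.80 after ischemia, a rise of 1.42 (SE 0.27, n = 3, limma adjusted p = 0.00458). Cks1b, which helps the ligase that degrades p27, rose by 1.33, with 7.40, 7.75 and 7.78 against 8.98, 8.72 and 9.21 (limma adjusted p = 0.00115). E2f4 and E2f5, which act with the pocket proteins mainly as repressors, rose by 1.27 and 1.17 (limma adjusted p = 0.000801 and 0.00349). Tfdp1, the common partner of E2F factors, and Mnat1, a subunit of the CDK-activating kinase, were the other rises. Rbl2, which encodes the pocket protein p130 of resting cells, fell by 0.91 and Tfdp2 by 0.82. Ccnh, a cyclin of the same kinase, and the repressor E2f6, both of high mean, did not pass the test at 0.0076 and 0.63.

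Among the further replication genes 4 of 38 tested genes rose and 1 fell. Orc6, of the origin recognition complex, rose by 1.21 (6.53, 6.54 and 6.62 in controls against 7.86, 7.92 and 7.54, limma adjusted p = 0.000805). All controls of Orc6 lay under the level required for testing, so it was tested only through the ischemic rats, in which it is high, and its size is read against a probe set at background. Cdt1, which loads the MCM ring on origins, rose by 0.90 (8.10, 8.42 and 8.49 against 9.45, 9.11 and 9.15, limma adjusted p = 0.00366). The polymerase subunit Pold2 rose by 0.74, and Rpa3, part of the protein that coats single-stranded DNA, by 0.68. Tk1, the thymidine kinase of S phase, went the other way, from 13.04, 13.08 and 12.96 to 12.45, 11.88 and 11.81, and fell by 0.98 (limma adjusted p = 0.00445). Lig1, the replicative ligase, and Rfc4, of the clamp loader, did not pass the test at -0.20 and 0.51. The median over the 42 measured genes was 0.21, against 0.49 over the S genes.

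Among the further mitosis genes 3 of 45 tested genes rose and 1 fell, with a median of -0.020 over the 61 measured, and 20 of the 61 had control means at or under the background level. Cenpn, of the centromere, rose by 1.27, Bub3, of the spindle checkpoint, by 0.78 and Ube2s, which builds ubiquitin chains on proteins destroyed as mitosis ends, by 0.65 (limma adjusted p = 0.0019 to 0.00959). Kif23, a motor of cell division, stood at 8.20, 8.37 and 8.80 in controls and at 7.62, 7.29 and 7.14 after ischemia, and fell by 1.11 (limma adjusted p = 0.00368), with an ischemic mean of 7.35, under the background level. H2az1, a histone variant, and Tubb5, a tubulin, both of high mean, did not pass the test at -0.10 and 0.22. Ischemic rat 64 was the highest ischemic rat in 42 of the 61, as in the 17 G2/M genes above.

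Among genes listed as further inhibitors of CDKs and of growth 0 of 16 tested genes rose and 4 fell, and all 3 ischemic values were below the controls in 9 of 16. The like shares of all genes tested were 16.8%, 5.99% and 19.9%. Cdkn1c, which encodes p57, fell by 1.54 (9.03, 8.84 and 8.36 against 8.04, 6.63 and 6.92, limma adjusted p = 0.00991), and its ischemic mean, 7.20, lay under the background level, which limits the size that can be read. Klf2, a factor that keeps macrophages and lymphocytes quiescent, fell by 1.43 (12.52, 12.80 and 13.09 against 11.82, 11.05 and 11.25, limma adjusted p = 0.0024). Txnip, which restrains glucose uptake and growth, fell by 1.30, and Ccng2, a cyclin that slows the cycle, by 0.997 (limma adjusted p = 0.00915 and 0.00322). Btg1 and Gas6, of high mean, did not pass the test at 0.21 and -1.22. The list was drawn up by name and is wider than inhibitors in the strict sense, since it also holds Gas6. All 3 ischemic values of Gas6 lay below the controls, so it is among the 9 of 16. The list's median of -0.47 had the sign of that of the 3 CDK inhibitors.

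In the p53 and DNA damage list 2 of 21 tested genes rose and 4 fell. Sesn1 stood at 10.55, 10.94 and 11.18 in controls and at 9.46, 8.67 and 8.48 after ischemia and fell by 2.02 (limma adjusted p = 0.00127), the only one of the 137 beyond 2. Plk2 fell by 1.72 and the p53 phosphatase gene Ppm1d by 1.44, while Aen, a nuclease gene induced by p53, rose by 1.41 (limma adjusted p = 0.00105, 0.000528 and 0.00078). Plk3 was the other rise and Mdm4, a p53 inhibitor, the other fall. Ccng1 and Gadd45b, of high mean, did not pass the test at 0.17 and -0.64. The called genes thus lay on both sides of 0, and p53 itself had no probe set that names 1 gene only.

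**Figure D4:**
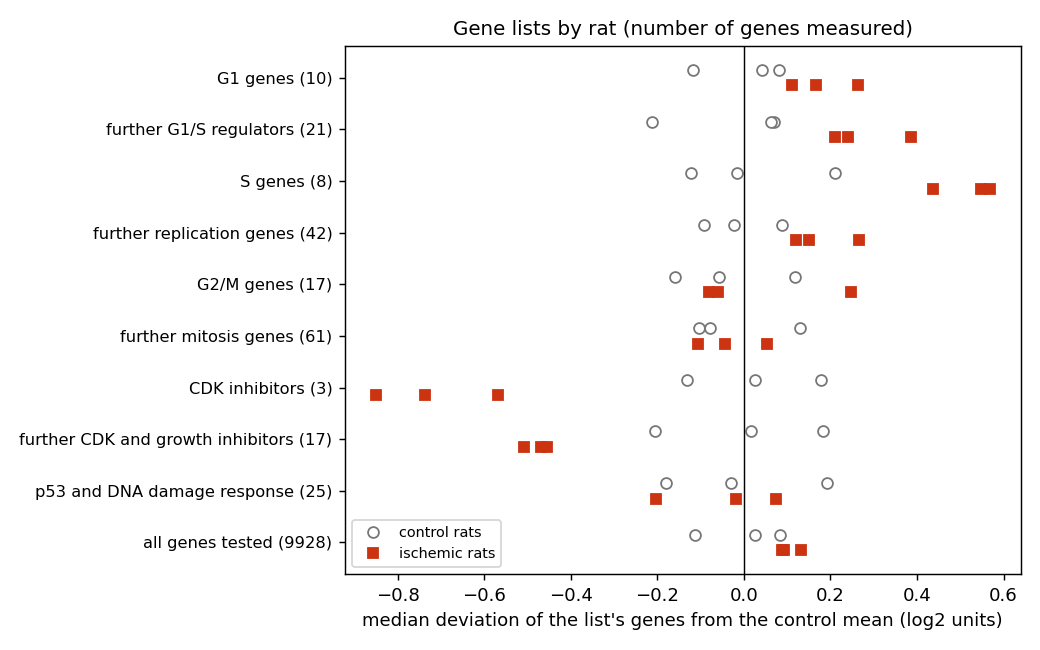
Median deviation from the control mean (x axis, log2 units) of the genes of each list (rows, with the number of genes measured) in the 3 control rats (open circles) and the 3 ischemic rats (filled squares). The ischemic rats lie above all controls for the S, G1 and further G1/S and replication genes. They lie below them for both inhibitor lists, and over nearly the same range as the controls for the further mitosis genes. Over all genes tested the ischemic rats also lie above all controls, at 0.13, 0.093 and 0.087 against -0.11, 0.084 and 0.025, so separation alone is not particular to these lists.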

How the data were processed

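RNA of sorted cells was labelled by the authors with a 3′ IVT kit and hybridised to Affymetrix rat arrays. The authors deposited log2 values normalized by RMA, and the submitters' notes name RMA, limma 3.18 and R 3.3.1. They were used as deposited. Of 31099 probe sets, 57 were controls, 20826 named 1 gene, 436 several and 9780 none, and each gene was read from its probe set of highest mean. Other probe sets were read one by one for the members only. Called further genes with several probe sets, such as Klf2 with 5 and Tk1 with 3, thus rest on 1 of them. With a gene's probe sets averaged, 15 further genes rose and 11 fell. Genes were tested where at least 3 of 6 arrays exceeded 7.16, the 40th percentile. The groups were compared with limma 3.58.1 (lmFit and eBayes, R 4.3.3), two-sided, with Benjamini-Hochberg adjustment over 9928 genes, and drawn with matplotlib 3.10.9. Each rat was 1 replicate, and p-values set the group difference against the spread between rats, moderated across genes. Precision is limited by the number of rats, since arrays have no read depth.

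The members and lists, and the rule for naming genes, were chosen with earlier results of these data known. All members may be named, and from each further list the 4 called genes that changed most and the 2 uncalled genes of highest mean. Other called genes of these lists, and some markers, were named after their values were seen. Motifs were counted in RefSeq windows of GRCr8. A symbol with several windows (3251 symbols, none a member) was counted by its first among genes tested. Alternatives changed the filter, probe set, scaling, moderation, weights, threshold and rats. The fit was tested on simulated data. It recovered 1 of 50 genes with a simulated log2 change of 0.5, 23 of 50 at 1 and 44 of 50 at 2. Of 9728 unchanged genes, 0 were called. Only a small part of the genes was changed there, so the shares recovered may not hold for these data.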

Additional observations from a re-analysis of the deposited data

How the results depend on the processing

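No called cell cycle gene changed direction under any of the alternatives run. No paired analysis was possible because the control and ischemic rats share no number. The main counts were 1664 genes higher and 595 lower, 4 and 3 among the 34 tested cell cycle genes, and 15 and 12 among the 137 further genes. Centring on ribosomal protein genes gave 801 genes higher, 1 member higher and 6 further genes higher, with medians of -0.027 (G1), 0.29 (S), -0.20 (G2/M) and -0.92 (inhibitors). Repeated quantile normalization gave 927 genes lower and an inhibitor median of -0.87. Array weights gave 1309 genes lower, 7 members higher (Ccnd3, Mcm5 and Aurka added) and 24 further genes lower. At an adjusted p under 0.05 there were 2722 genes higher and 1377 lower, 10 members higher, and 24 further genes higher and 29 lower. Beyond 2 log2 units there were 162 and 58 genes, 0 and 0 members, and 0 and 1 further genes. Without limma's moderation, every one of these counts was 0 (lowest adjusted p 0.0101), although 14 of the 34 cell cycle genes had an unadjusted p under 0.05, and with moderation 5014 of all genes did. A low-variability filter, which tests fewer genes, gave medians of 0.56 (G1), 0.30 (G2/M) and -1.26 (inhibitors), and the 60th percentile filter a G1 median of 0.27. With the 60th percentile filter 3 members were higher, as Ccne1 was not tested. Leaving out 1 rat at a time gave 681 to 1564 genes higher (lowest without ischemic rat 65) and 166 to 816 lower, 0 to 2 members higher and 2 to 3 lower, 6 to 13 further genes higher and 3 to 15 lower. The medians then ranged from 0.11 to 0.21 (G1), from 0.44 to 0.64 (S, highest without control 68), from -0.097 to 0.082 (G2/M) and from -0.79 to -0.65 (inhibitors). The cause of these differences was not tested, and having fewer rats or genes was not told apart from which ones were left out. With 3 rats per group, a gene not past the test is not shown to be unchanged, and genes near the background level can show little change.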
